A study of Mus musculus with 12 samples.

Results

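Interleukin 6 family signalling was followed through 10 genes of a table of 34174 genes: the ligand genes Il6, Il11, Lif and Clcf1, the receptor chain genes Il6ra, Il6st, Lifr and Osmr, the transcription factor gene Stat3 and its feedback inhibitor Socs3. They were taken by gene symbol, and all 10 were present and passed the filter on low values. The table describes the total RNA of cultured mouse cardiac stem cells, cells grown out of the heart of C57BL/6 mice on gelatin-coated dishes in a medium with serum and at 21% oxygen. The cultures were labelled wild-type or c-kitCre, a name used for alleles in which the Kit gene drives the Cre recombinase, and the sources used here give neither the exact allele nor the animals' age or sex. Each group had 3 numbered cultures and each culture 2 libraries, which the deposited values merge, so every group mean rests on n = 3 cultures. Separate animals are not named for the cultures, and the authors' comparison is called a clone analysis. The spread behind every p-value is that between these cultures and may be technical.

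Cytokines of the interleukin 6 family signal through receptor complexes that share the chain gp130, the product of Il6st. Interleukin 6 and interleukin 11 first bind a private chain, encoded by Il6ra or Il11ra1, whereas leukaemia inhibitory factor, the product of Lif, pairs gp130 with the Lifr chain and oncostatin M pairs it with Osmr or Lifr. The bound receptors activate Janus kinases, which phosphorylate Stat3, and Stat3 induces Socs3, an inhibitor that binds gp130 and ends the signal. Lif and Stat3 are known for keeping mouse embryonic stem cells undifferentiated, and in the heart the family is known for its protective and growth effects on muscle cells. RNA levels do not report secretion of a ligand or phosphorylation of Stat3.

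Levels are given as scaled reads, the deposited raw values brought to a common depth with the factor per culture that links them to the authors' normalized values. Differences are on the log2 scale, c-kitCre minus wild-type, from limma with Benjamini-Hochberg adjustment over 24151 genes, and a gene is called at an adjusted p under 0.05. Kit itself went against the labels, with 1.17 to 3.38 scaled reads in the wild-type-labelled cultures and 1603 to 1738 in the c-kitCre-labelled ones. Every direction below rests on the labels as deposited. Xist, the RNA of the inactive X chromosome, also separated the groups, with 30654 to 39035 scaled reads against 29.8 to 64.6, while none of 4 Y-linked genes was called by limma. Their values over all 6 cultures were 0.976 to 6.95 for Ddx3y, 6.93 to 25.6 for Uty, 38.9 to 115 for Kdm5d and 5.81 to 31.8 for Eif2s3y, whose groups did not overlap. Cultures of one group were not equally alike. Wild-type cultures 2 and 3 differed from each other by a robust SD of the log2 ratio of 0.0652 over 3999 well-measured genes, whereas wild-type culture 1 and c-kitCre culture 2 stood 0.365 to 0.414 from their partners. Summed raw values were 22371439 to 35963488 per culture.

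The members that changed were 3 ligand genes, 1 receptor gene and Stat3, and all rose in the cultures labelled c-kitCre. Il6 was 201-fold, Lifr 14.5-fold, Il11 12.7-fold, Lif 6.03-fold and Stat3 4.38-fold higher as ratios of the group means. The 5 other members, Clcf1, Il6ra, Il6st, Osmr and Socs3, were not called. Of all 24151 genes tested, 35.5% were called, 16.2% as higher and 19.3% as lower, and the members stood at 5 called of 10. The groups did not overlap in 7 members, where 53.2% of all genes did not overlap. The median log2 difference of the 10 members was 1.43, beside 0.04 for all genes tested. In bulk RNA, more cells of one type and more RNA per cell cannot be told apart.

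**Figure D1:**
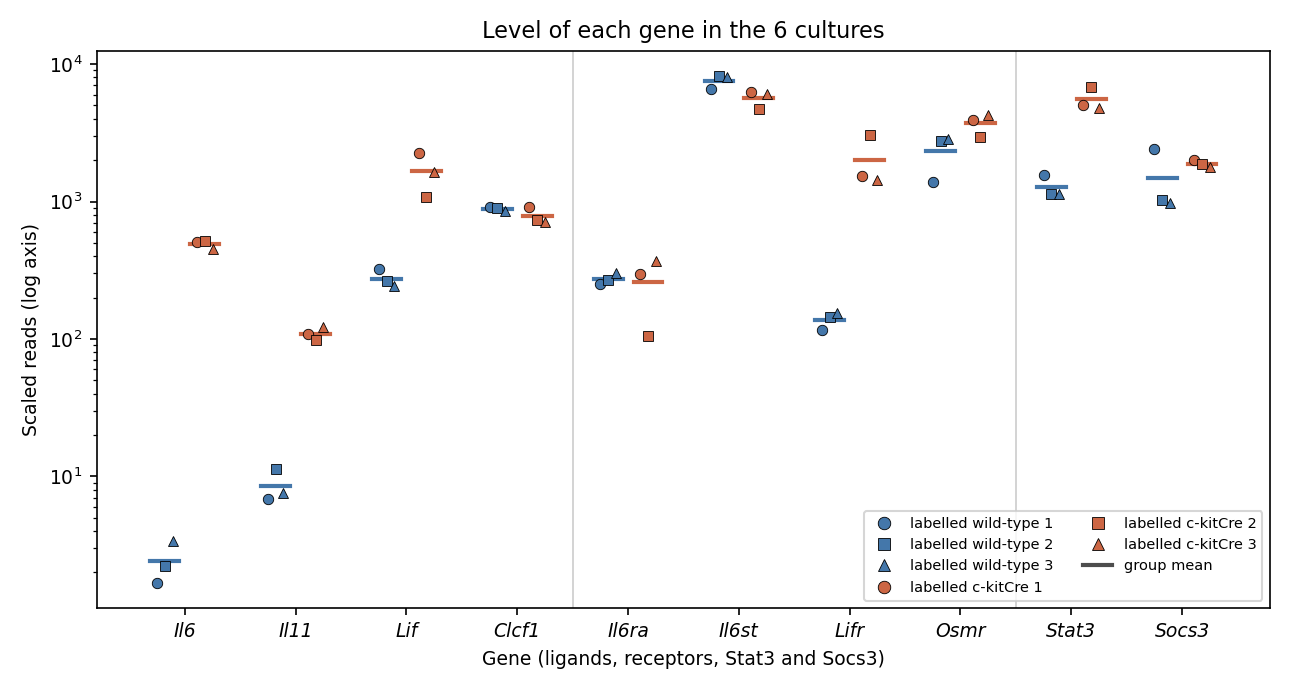
Scaled reads of each gene (log axis) in the 3 cultures labelled wild-type (blue) and the 3 labelled c-kitCre (red), with a bar at each group mean and a symbol shape per culture number. Il6, Il11, Lif, Lifr and Stat3 are separated widely, while Clcf1, Il6ra and Socs3 overlap between the groups.

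The 3 ligand genes that rose are shown with the 250 bases before their transcription start, since these stretches hold the short motifs through which inducible cytokine genes are known to be switched on. The sequences are those of RefSeq (build GRCm38.p6), written 5′ to 3′ on the strand of the gene, and capitals mark the motifs found. The Il6 stretch is chr5:30012864-30013113 (plus strand), the Lif stretch is chr11:4257318-4257567 (plus strand) and the Il11 stretch is chr7:4778142-4778391 (minus strand).
Il6: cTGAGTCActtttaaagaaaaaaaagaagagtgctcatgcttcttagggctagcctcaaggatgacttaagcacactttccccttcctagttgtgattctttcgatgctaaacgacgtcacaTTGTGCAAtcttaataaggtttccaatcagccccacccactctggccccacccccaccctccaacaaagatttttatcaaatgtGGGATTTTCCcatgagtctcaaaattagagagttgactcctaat
Lif: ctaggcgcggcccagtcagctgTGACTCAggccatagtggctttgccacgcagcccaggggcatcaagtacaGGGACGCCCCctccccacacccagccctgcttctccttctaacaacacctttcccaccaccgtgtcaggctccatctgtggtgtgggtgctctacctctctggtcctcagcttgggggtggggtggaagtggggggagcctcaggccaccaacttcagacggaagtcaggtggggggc
Il11: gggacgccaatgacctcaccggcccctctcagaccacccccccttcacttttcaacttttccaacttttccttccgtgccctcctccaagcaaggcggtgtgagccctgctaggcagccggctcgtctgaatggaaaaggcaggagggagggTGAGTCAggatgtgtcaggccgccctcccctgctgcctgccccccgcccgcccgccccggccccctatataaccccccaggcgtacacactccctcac
In Il6, the capitals are in order an AP-1 motif (TGAGTCA, bound by Fos and Jun proteins), a C/EBP motif (TTGTGCAA, bound by proteins such as that of Cebpd) and a kappaB motif (GGGATTTTCC, bound by the NF-kappaB factors). In Lif they are an AP-1 motif (TGACTCA) and a kappaB motif (GGGACGCCCC), and in Il11 an AP-1 motif (TGAGTCA). The searches covered both strands for AP-1 (TGANTCA), C/EBP (TTNNGCAA), the Stat motif (TTCNNNGAA), the cyclic AMP response element (TGACGTCA) and kappaB, and no match overlapped a match of another motif. Il11 has a second RefSeq start, whose stretch held none of the motifs. RefSeq sequences were matched for 9 of the 10 members, with Clcf1 not among them. An AP-1 motif was found in 3 of these 9 members, the 3 ligand genes, and in 7.82% of 27025 genes. The Stat motif was found in 1 member, Socs3 (TTCTTAGAA, 154 to 146 bases before its RefSeq start), and in 8.13% of all genes. The Socs3 stretch lies inside the gene as GENCODE annotates it, with 77 of its 250 bases in exons. The bases after that start were not found in a GENCODE transcript of Socs3. The C/EBP motif was found in 1 member and in 10.8% of all genes, and the kappaB motif in 2 members and in 8.23% of all genes. The cyclic AMP response element was found in no member and in 1.77% of all genes. These matches describe the letters and not binding.

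Among the ligands, Il6 (ENSMUSG00000025746), which encodes interleukin 6, the family's founding cytokine, lies on chromosome 5 from 30013114 to 30019981 (build mm10, as all coordinates of genes here). It stood at 1.69, 2.24 and 3.38 scaled reads in the wild-type-labelled cultures and at 506, 512 and 449 in the c-kitCre-labelled ones. The gene was therefore close to undetected in every culture of the first group and well detected in every culture of the second. The log2 difference was 6.69 ± 0.27 (SE; limma, adjusted p = 6.01e-05), and the alternatives gave 6.06 to 7.18. The wild-type values lie under 4.41 scaled reads, the floor to which the authors' normalized values are raised, so the log2 difference understates the ratio of 201 and the ratio itself rests on very few reads. The authors' deposited table lists Il6 with a fold of 103 in the same direction.

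Il11 (ENSMUSG00000004371, chromosome 7, 4772373 to 4782859), which encodes interleukin 11, a cytokine known for driving fibroblast activation, stood at 6.88, 11.3 and 7.52 scaled reads against 108, 98.1 and 122. Every culture labelled c-kitCre exceeded every other culture, and the means were 8.58 ± 2.42 and 109 ± 12.2 (SD, n = 3). This was a log2 difference of 3.67 ± 0.31 (SE; limma, adjusted p = 0.000442). Lif (ENSMUSG00000034394, chromosome 11, 4257557 to 4272514) stood at 322, 262 and 242 scaled reads against 2248, 1083 and 1646. The groups did not overlap, and within the second group culture 1 was the highest and culture 2 the lowest. The log2 difference was 2.54 ± 0.28 (SE; limma, adjusted p = 0.00121), with means of 275 ± 41.4 and 1659 ± 582 (SD, n = 3).

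Clcf1 (ENSMUSG00000040663, chromosome 19, 4214238 to 4223490), which encodes cardiotrophin-like cytokine factor 1, did not follow the other ligand genes. It stood at 912, 899.6 and 853 scaled reads in the wild-type-labelled cultures and at 918, 737 and 714 in the c-kitCre-labelled ones. The groups overlapped through c-kitCre culture 1. The log2 difference was -0.18, with a 95% interval of -0.51 to 0.16 (limma, adjusted p = 0.361). After centring on the median gene it was -0.53 and called (adjusted p = 0.0263). Clcf1 shares 311 exon bases on the same strand with another annotated gene, AC109138.7, and how reads from there were counted is not stated.

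The order of the ligand genes by level per length differed between the groups. In scaled reads per kb of merged exons, the group means in the cultures labelled wild-type were 233 ± 8.14 for Clcf1, 63.3 ± 9.53 for Lif, 4.13 ± 1.16 for Il11 and 1.00 ± 0.355 for Il6 (SD, n = 3), and no 2 neighbours in this order overlapped. In the cultures labelled c-kitCre, the means were 381 ± 134 for Lif, 207 ± 29.3 for Clcf1, 201 ± 14.3 for Il6 and 52.6 ± 5.88 for Il11. There Clcf1, at 188 to 241, and Il6, at 185 to 211, overlapped, while Lif, at 249 to 517, stayed above both and Il11 below all. Il6 thus had the lowest level per kb of the 4 in the first group and a level within the range of Clcf1 in the second.

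**Figure D2:**
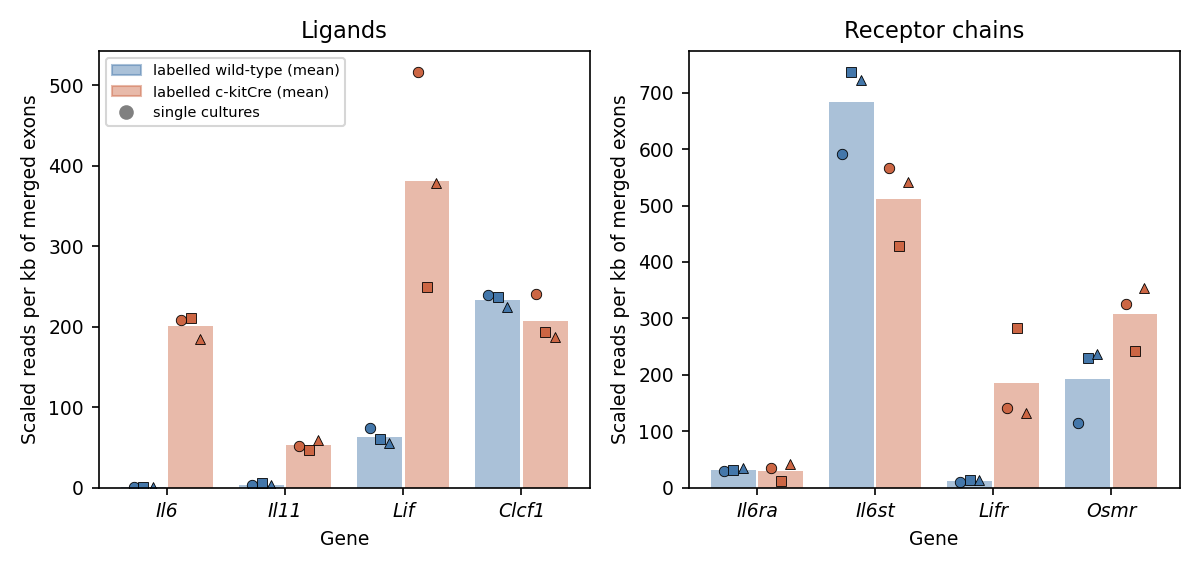
Scaled reads per kb of merged exons for the ligand genes (left) and the receptor chain genes (right), with bars at the mean of the 3 cultures of each group and points for single cultures, shaped by culture number. Il6st has the highest level of the receptor genes in both groups, at 683 and 512, and Lifr moves from 12.8 to 186.

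Among the receptor chains, Lifr (ENSMUSG00000054263, chromosome 15, 7090614 to 7197489), the second signalling chain for leukaemia inhibitory factor, was the only one of the 4 members called. It stood at 116, 144 and 154 scaled reads in the wild-type-labelled cultures and at 1526, 3049.6 and 1433 in the c-kitCre-labelled ones. The groups did not overlap, and within the second group culture 2 was the highest while cultures 1 and 3 were close. Its log2 difference was 3.78 ± 0.32 (SE; limma, adjusted p = 0.000434), with means of 138 ± 19.6 and 2003 ± 908 (SD, n = 3).

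Osmr (ENSMUSG00000022146, chromosome 15, 6813577 to 6874969), a receptor chain for oncostatin M, lies 215.6 kb from Lifr with no other gene of the table between them. It stood at 1396, 2776 and 2863 scaled reads against 3951, 2929.9 and 4289. The groups did not overlap, but wild-type cultures 2 and 3 and c-kitCre culture 2 were close to each other, and wild-type culture 1 was the lowest by far. The log2 difference of 0.72 had a 95% interval of -0.05 to 1.49 (limma, adjusted p = 0.130). Without wild-type culture 1 and c-kitCre culture 2, the cultures that stood apart, it was 0.55 and called (adjusted p = 0.0111), a choice made after seeing the data. The neighbours Osmr and Lifr therefore stood at 1.59-fold and 14.5-fold as ratios of group means.

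Il6st (ENSMUSG00000021756, chromosome 13, 112464070 to 112510086), the shared chain gp130, stood at 6558, 8183 and 8017 scaled reads in the wild-type-labelled cultures and at 6281, 4749.8 and 6014 in the c-kitCre-labelled ones. The groups did not overlap, although wild-type culture 1 and c-kitCre culture 1 were close. The log2 difference was -0.42, with an interval of -0.82 to -0.02 before adjustment (limma, adjusted p = 0.0979). It was called at -0.77 after centring on the median gene (adjusted p = 0.0104) and at -0.40 without the 2 cultures that stood apart (adjusted p = 0.0134). Il6ra (ENSMUSG00000027947, chromosome 3, 89864059 to 89913196), the private chain of interleukin 6, stood at 250.1, 269 and 303 scaled reads against 298, 105 and 371. The second group spanned the first, with c-kitCre culture 2 the lowest of all 6. The log2 difference of -0.27 had an interval of -1.43 to 0.89 (limma, adjusted p = 0.689), and without that culture it was 0.29 (adjusted p = 0.244). Il6ra shares 242 exon bases with an antisense gene, Gm42809, and the use of strand in counting is not stated.

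Per kb of merged exons, the receptor genes in the cultures labelled wild-type were ordered Il6st at 683 ± 80.5, Osmr at 194 ± 67.9, Il6ra at 31.7 ± 3.08 and Lifr at 12.8 ± 1.82 (SD, n = 3), with no overlap between neighbours. In the cultures labelled c-kitCre, Il6st at 512 ± 73.7 stayed highest and Il6ra at 29.9 ± 15.9 became the lowest, without overlap with their neighbours in the order. Between them, Osmr at 307 ± 58.4 and Lifr at 186 ± 84.2 overlapped, since Lifr reached 283 in culture 2 and Osmr went down to 242 there. Lengths are merged exons of the annotation, which may include ends that these cells do not use.

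Stat3 (ENSMUSG00000004040, chromosome 11, 100885098 to 100939540), the transcription factor downstream of gp130, stood at 1547, 1129.7 and 1125 scaled reads in the wild-type-labelled cultures and at 5062, 6835 and 4767 in the c-kitCre-labelled ones. The lowest culture of the second group lay well above the highest of the first. Stat3 had a log2 difference of 2.13 ± 0.20 (SE; limma, adjusted p = 0.000651), with means of 1267 ± 242 and 5555 ± 1119 (SD, n = 3). Stat3 shares 72 exon bases with Stat5a on the opposite strand. Stat5a and Stat5b, its neighbours, also rose, as given with the other Stats.

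Socs3 (ENSMUSG00000053113, chromosome 11, 117966079 to 117970047), the feedback inhibitor that Stat3 is known to induce, stood at 2403, 1032 and 983 scaled reads against 1999.6, 1879 and 1769.6. Wild-type culture 1 was the highest of all 6, while wild-type cultures 2 and 3 were the lowest, so the groups overlapped through that culture alone. The log2 difference of 0.48 had an interval of -0.37 to 1.33 (limma, adjusted p = 0.333). Without wild-type culture 1 it was 0.90 and called (adjusted p = 0.00268). The group means were 1473 ± 806 and 1883 ± 115 (SD, n = 3).

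**Figure D3:**
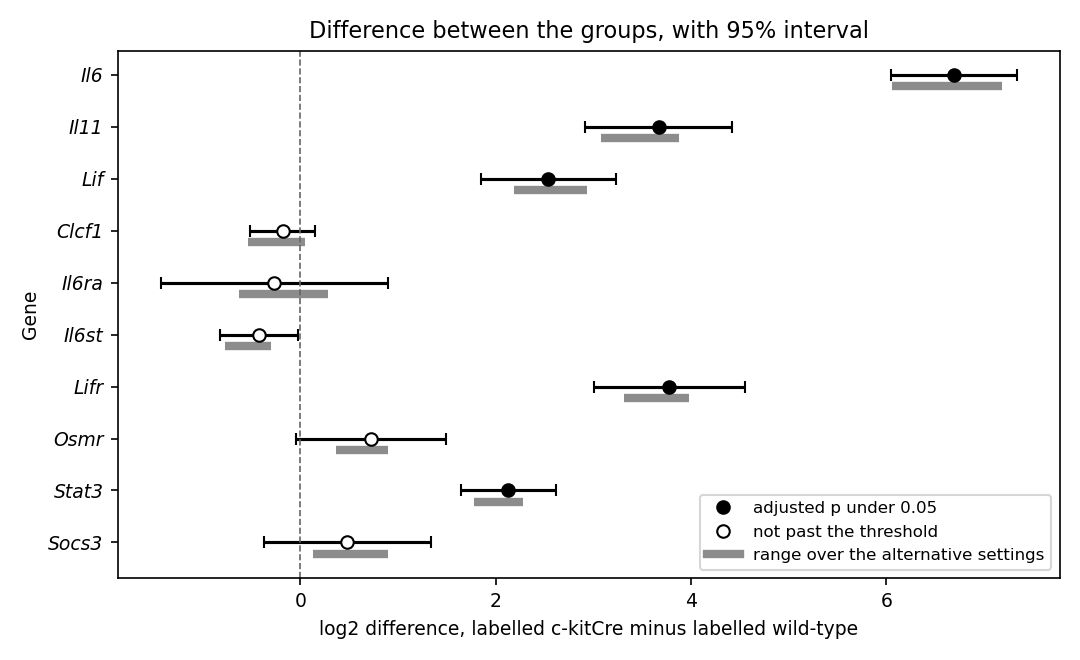
Log2 difference of each gene, c-kitCre minus wild-type, with its 95% interval from limma before adjustment (black) and the range over the alternative settings (grey). Filled points are called at an adjusted p under 0.05, and only the grey ranges of Clcf1 and Il6ra cross 0.

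The 5 called members, Il6, Il11, Lif, Lifr and Stat3, were called in each of 17 alternatives, including every fit without 1 culture. Tested on log2(scaled reads + 1) by exact two-sided permutation, p was 0.1 for each of the 7 members whose groups did not overlap. That is the smallest value that 3 cultures against 3 allow, and groups that do not overlap always reach it. The authors' deposited table of 4528 genes, which holds no fold smaller than 2.5, lists the same 5 members and none of the others, with folds of 103 for Il6, 13.7 for Lifr, 12.7 for Il11, 5.81 for Lif and 4.38 for Stat3. Centring on the median gene moved all log2 differences by -0.35 and the share of higher calls from 45.5% to 24.7% (2821 higher and 8605 lower), and under it the members counted 5 higher and 2 lower.

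The rest of the pathway was read from 72 other genes in 7 lists. Of these, 68 were tested, and 25 were called higher, 14 lower and 29 not called, with a median log2 difference of 0.22. Over all genes tested, 35.5% were called, 16.2% as higher and 19.3% as lower. Of the 39 called, 28 kept their call in every alternative that tested them, 20 higher and 8 lower.

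Among 8 other ligand genes, 6 were tested, with 1 higher, 2 lower and 3 not called, beside 16.2% higher and 19.3% lower over all genes. Ctf1, encoding cardiotrophin 1, fell from 86.4 ± 21.3 to 43.7 ± 3.07 scaled reads (SD, n = 3; limma, adjusted p = 0.0467), a call lost when any 1 culture was left out, with adjusted p up to 0.123. Cntf, encoding ciliary neurotrophic factor, fell from 20.2 ± 4.37 to 9.49 ± 0.959 (limma, adjusted p = 0.0173), but 847 of its 1073 exon bases are shared with Zfp91 on the same strand, which fell from 6330.3 to 3044, and it was no longer called when c-kitCre culture 1 was left out (adjusted p = 0.0534). The 2 genes cannot be told apart there.

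Osm, encoding oncostatin M, lies 16.5 kb from Lif on chromosome 11 and was hardly detected, at 0 to 1.09 scaled reads in the wild-type-labelled cultures and 1.52 to 4.23 in the c-kitCre-labelled ones. It was not called (limma, adjusted p = 0.883), while its neighbour Lif rose, and no fold is given since every value lies under the floor. Ctf2 stood at means of 55.1 ± 23.9 and 48.7 ± 11.3 scaled reads, and Il27 at 2.82 and 5.36, where c-kitCre culture 2 alone reached 11.7 and the mean without it was 2.18. Neither was called. Ebi3 and Il31 did not pass the filter.

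Of the 4 other receptor chain genes, 3 were higher and 1 was not called, beside 16.2% higher and 19.3% lower over all genes. Il27ra, a chain of the interleukin 27 receptor that pairs with gp130, stood at 2.64, 1.34 and 0.584 scaled reads against 328, 313 and 295. It was nearly absent in the first group and even across the second (log2 difference 6.10 ± 0.26, SE; limma, adjusted p = 7.03e-05), and its wild-type mean of 1.52 was 0.962 without culture 1. Il11ra1, the private chain of interleukin 11, stood at 523, 353 and 355 against 818, 1175 and 792 (log2 difference 1.18; limma, adjusted p = 0.0104). Its call was lost without wild-type culture 2 (adjusted p = 0.0511), and reads of its near-identical copies may have been split in counting. Cntfr, the ciliary neurotrophic factor receptor, rose from 2.52 ± 1.56 to 16.4 ± 4.53 scaled reads (SD, n = 3; limma, adjusted p = 0.00220), with every wild-type value under the floor of 4.41. Il31ra, at 0 to 3.39 against 2.67 to 28.1, was not called (limma, adjusted p = 0.120), but was called at 2.29 without c-kitCre culture 2 (adjusted p = 0.00576).

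The Janus kinases and the other Stats rose where they were called. Of 9 genes tested, 6 were higher, none was lower and 3 were not called, with a median log2 difference of 0.82. The shares over all genes tested were 16.2% higher and 19.3% lower. Jak3, a kinase best known from lymphocyte cytokine receptors, stood at 375, 298 and 292 scaled reads against 1545, 2028 and 1742 (log2 difference 2.46; limma, adjusted p = 0.000221). It shares 404 exon bases on the same strand with Insl3, and how reads from there were counted is not stated. Jak1, the main kinase of gp130, rose from 3158 ± 110 to 5589 ± 705 (SD, n = 3; limma, adjusted p = 0.00436), and Jak2, named after its values were seen, from 1210.3 to 2315. The Stat genes called were Stat2, with 194 and 469 scaled reads, Stat5a, with 279 and 698, and Stat5b, with 775 and 1189 (limma, adjusted p = 0.00294, 0.00662 and 0.00718). Stat3, Stat5a and Stat5b lie side by side on chromosome 11, and all 3 were higher, by 2.13, 1.32 and 0.61 on the log2 scale, although Stat5b lost its call after centring on the median gene (0.26, adjusted p = 0.118). Tyk2 (0.50, adjusted p = 0.0599) and Stat6 (-0.60, adjusted p = 0.0619) were not called by limma, although their groups did not overlap. Groups did not overlap in 53.2% of all genes tested. Stat4 did not pass the filter.

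Of 14 negative regulators of the pathway, 3 were higher, 5 lower and 6 not called, beside 16.2% higher and 19.3% lower over all genes, and their median log2 difference was -0.30. Cish, a relative of Socs3 best known as a target of Stat5, stood at 50.4, 30.4 and 22.9 scaled reads against 139, 214 and 164 (log2 difference 2.37; limma, adjusted p = 0.00456). Ptpn6, which encodes the phosphatase Shp1 and is mostly known from blood cells, fell from 654, 289 and 289 to 48.8, 28.1 and 37.3 scaled reads (log2 difference -3.35; limma, adjusted p = 0.00176). Ptpn1, a phosphatase acting on Janus kinases, fell from 1505 to 544, Pias2, a member of the protein inhibitors of activated Stat, from 2861 to 1414, and Socs4 from 1458 to 922 scaled reads (limma, adjusted p = 0.00106, 0.00105 and 0.00676). Pias1 and Pias4 as higher and Socs7 as lower, named after their values were seen, were the other calls, of which Pias4 and Socs7 lost their call in several alternatives, up to adjusted p of 0.0815 and 0.0871.

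In the arm that links gp130 to Ras and Erk, 5 of 10 genes were higher, 2 lower and 3 not called. Over all genes tested, 16.2% were higher and 19.3% lower. The median log2 difference of the list was 0.34. Ptpn11, which encodes Shp2, the phosphatase that docks on gp130 at the same site as Socs3, fell from 8107 ± 339 to 3116 ± 487 scaled reads (SD, n = 3; limma, adjusted p = 0.00104). The docking proteins Gab1 and Gab2, which bind Shp2, rose from 294 to 1082 and from 229.6 to 837 scaled reads (limma, adjusted p = 0.00405 and 0.000244). The kinases Map2k1 and Mapk3 rose from 2349 to 7071 and from 1318 to 3233 scaled reads (limma, adjusted p = 0.00290 and 0.00998). Shc1 as higher and Map2k2 as lower, named after their values were seen, were also called, and kept their calls in 13 and 5 of the 17 alternatives. The 2 proteases listed for release of the soluble interleukin 6 receptor were not called.

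Of 23 genes tested that textbooks give as responses to Stat3 or interleukin 6, 7 were higher, 5 lower and 11 not called, with a median log2 difference of 0.28. The shares over all genes were 16.2% higher and 19.3% lower. Cebpd, a C/EBP factor induced by Stat3, stood at 73.1, 60.9 and 55.0 scaled reads against 2909, 7172 and 2857, a 68.5-fold rise in which c-kitCre culture 2 was far above the other cultures (log2 difference 5.96 ± 0.38, SE; limma, adjusted p = 0.000190). Fos, a subunit of AP-1, stood at 90.8, 69.8 and 68.4 against 3185, 1271 and 2059.8, with culture 2 the lowest of its group (log2 difference 4.74 ± 0.35, SE; limma, adjusted p = 0.000286). Vegfa, the vascular growth factor gene, rose from 6471 ± 490 to 18744 ± 416 scaled reads (SD, n = 3; limma, adjusted p = 0.000411). Bcl3, Junb, Pim1 and Timp1, named after their values were seen, were the other 4 called as higher. In the other direction, the cell cycle gene Ccnd1 fell from 25050.0 ± 3948 to 5921 ± 1471 scaled reads and the chemokine gene Ccl2 from 11247 ± 2476 to 3014 ± 492 (SD, n = 3; limma, adjusted p = 0.00128 and 0.00107), and Myc, Bcl2l1 and Hp, named after their values were seen, were also lower. Timp1, Myc and Hp kept their calls in 9, 11 and 11 of the 17 alternatives. On the opposite strand, Cebpd shares 562 exon bases with Spidr and Ccnd1 shares 1100 with LTO1. Several other pathway genes also share exon bases with another annotated gene.

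**Figure D4:**
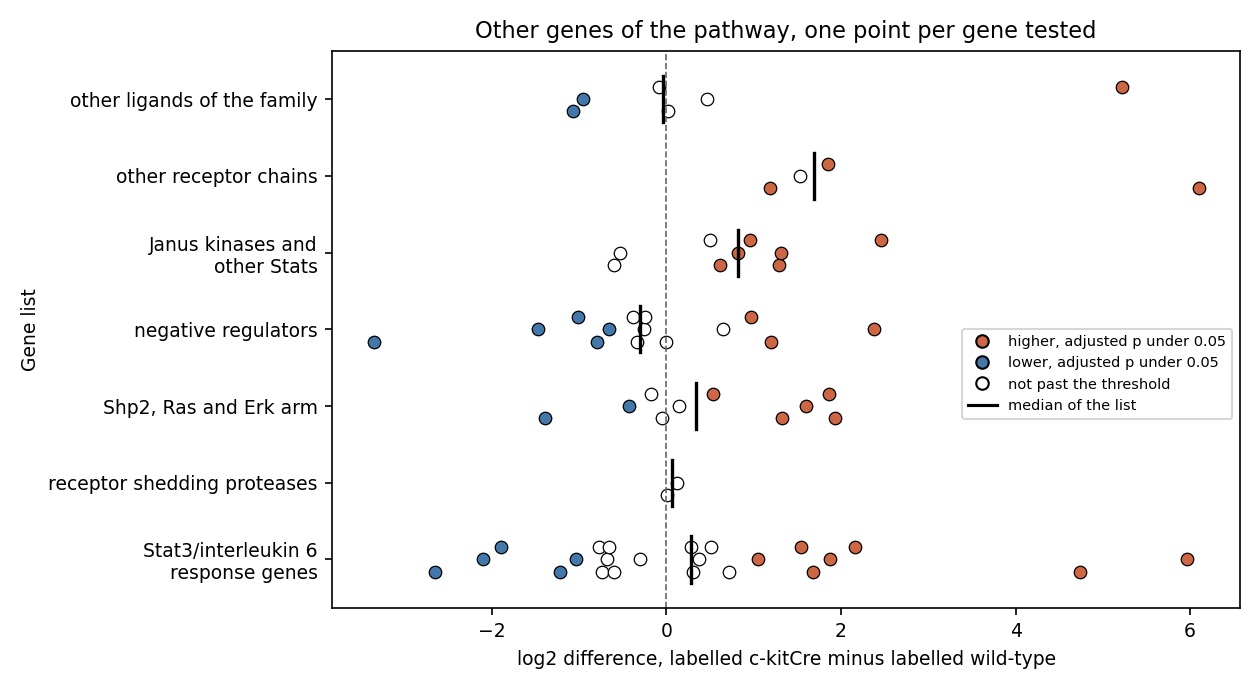
Log2 difference, c-kitCre minus wild-type, of each tested gene of the 7 other pathway lists, one point per gene, coloured by its call, with a bar at the median of each list. The medians run from -0.30 for the negative regulators to 1.69 for the 4 other receptor chains, and called genes lie on both sides of 0 in 4 of the 7 lists.

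Some markers of other cell types differed between the groups as well. The counts stand beside 35.5% of all genes called, 16.2% as higher and 19.3% as lower. All 8 fibroblast and stromal genes listed were called higher, with sums of 31604.5 to 34361 scaled reads in the wild-type-labelled cultures and 163816 to 233824 in the c-kitCre-labelled ones. Of 7 smooth muscle and pericyte genes, 4 were higher, with sums of 1373 to 2378 against 4215 to 6750.4. Of 5 mesothelial and epicardial genes tested, Wt1 and Tbx18 were higher, Msln was lower and 2 were not called. The sum of that list, 7149.9 to 8763 against 1092 to 1289.7, was carried by Msln, with means of 6950.1 and 43.5. Of 8 cardiomyocyte genes, Ryr2 was higher, Tnnt2 was lower and 6 were not called, and the sum, 2169 to 4079 against 508 to 843, was carried by Tnnt2, with means of 2194 and 122. The part of these cell types in the levels of Il6, Il11, Lif, Lifr and Stat3 was not tested. Of the leukocyte and macrophage list, 10 of 12 genes were in the table and 7 were tested. Csf1r was higher (means of 30.8 and 141 scaled reads), Cd14 (887 and 129) and Fcer1g (15.6 and 3.20) were lower, and 4 were not called, among them Cd68 with 126 and 240.4. Sums of the list were 842 to 1551 against 473 to 605, and Ptprc, the pan-leukocyte marker, stayed between 1.03 and 2.40 scaled reads in all 6 cultures. Sums of the 6 mast cell genes, a cell type that expresses Kit, were at most 1.95 and 3.31, with Cpa3, Mcpt4 and Ms4a2 at 0 in every culture. Of the 7 endothelial genes, 2 were higher and 5 were not called. The 2 were Cdh5 (means of 3.29 and 12.8 scaled reads) and Tie1 (2.69 and 6.04), with every wild-type value under the floor. The sums, 506 to 851 against 888 to 1052, were carried by Vwf (means of 668 and 874), which was not called and whose groups overlapped. Of the cardiac stem cell surface markers, Kit was higher in the cultures labelled c-kitCre, as given above. Ly6a and Eng were lower there, at 2784 to 3307 against 687 to 778 and at 2077 to 3155 against 341 to 600.5 scaled reads. Abcg2 was not called.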

How the data were processed

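Total RNA was depleted of ribosomal RNA and sequenced as paired reads of 100 bp, per the labels' protocols. DESeq and the build mm10 are named, per the submitters' processing notes. For the aligner, the annotation and the use of strand: not given in the sources used here. The authors' table holds, per the file headers, 34174 genes with raw and normalized values of 6 cultures (12 libraries). The deposited raw values, which merge 2 libraries and are not whole, were taken as a signal, and no count test was used. On the log2 scale, the deposited normalized values are floored and centred per gene. Factors of 0.825 to 1.52 relate both (largest deviation 2.04e-06 over 8369 genes). The authors' signed fold in a second table was treated as a score. Since raw values are not counts, no counting interval is given for single values, and the 3 cultures per group limit the precision.

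The log2 values, with the centring undone, were tested with limma 3.58.1 (R 4.3.3; eBayes with trend, two-sided, 3 against 3, no covariates), after leaving out genes that averaged under 1 scaled read or never left the floor. The fit was tested on simulated data. Coordinates and exon lengths are from GENCODE M21, and promoters from RefSeq. Tables were made with pandas 2.3.3, scipy 1.17.1 and numpy 2.4.6 under Python 3.11.15, and figures with matplotlib 3.10.9.

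The members, lists, tests and alternatives were chosen with earlier results of these data known. Named are the members, up to 5 genes per pathway list with the smallest p among those called without overlap, tested ligands and receptors, and label checks. A gene that this rule names is left out of the text and not reported here, while list counts include it. Same-numbered cultures deviated with correlations of 0.124, -0.009 and 0.190 over 13456 genes, and the other pairs with -0.191 to 0.161. With 3 cultures per group these values cannot decide whether the numbers pair the cultures. The reported fit treats them as unpaired. Wild-type cultures 2 and 3 were kept as 2 samples because the labels number them as 2 cultures, and averaging them was tried as an alternative (6043 genes and 5 members called). A planned search of the receptor proteins was not run.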

Additional observations from a re-analysis of the deposited data

How the results depend on the processing

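The calls of Il6, Il11, Lif, Lifr and Stat3 held in all 17 alternatives, and the count of members called ranged from 5 to 6 when 1 culture was left out. It rose to 8 (7 higher and 1 lower) without wild-type culture 1 and c-kitCre culture 2 together, an alternative added after seeing the data, as was averaging wild-type cultures 2 and 3. Calls over all genes ranged from 5685 (without wild-type culture 2) to 9061 when 1 culture was left out, and pathway calls from 30 to 41. With the culture number as a replicate block, 8123 genes, 5 members and 39 pathway genes were called. Of the named genes, the block ended the call of Ctf1 (limma, adjusted p = 0.104) and of Map2k2, and gave one for Stat6 (limma, adjusted p = 0.0354).

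Among the named genes, log2 differences changed sign or became 0 only where the gene was not called in the reported fit. For Clcf1, Il6ra and Ctf2 the cause was not tested. Clcf1 was 0.048 under quantile normalization. When 1 culture was left out, Il6ra ranged from -0.62 to 0.29, Ctf2 from -0.52 to 0.16, Il27 from 0 to 0.70 and Osm from 0 to 0.023. With both cultures that stood apart left out, Il6ra was 0.22 and Il27 was 0. Ctf2 was 0.13 with wild-type cultures 2 and 3 averaged. Osm was -0.34 after centring on the median gene and passed the threshold there (limma, adjusted p = 0.0172). Centring moved all log2 differences by -0.35, and that of Osm was 0.015 before it. The value for Osm therefore restates that shift and is no fall in its scaled reads, which had means of 0.364 and 2.59. Low levels limit Il6, Osm, Il27, Cntfr, Il27ra and Il31ra, which have values under the floor in at least 1 group.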
